A study of Bos taurus with 18 samples.

Results

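The miR-106b-25 cluster is a group of 3 microRNA (miRNA) hairpins, miR-106b, miR-93 and miR-25, that lie together and are transcribed as one precursor. Its members were set by name, as the entries bta-miR-106b, hsa-miR-93-5p and bta-miR-25 of the deposited library files. No measured value entered that rule, but earlier results of these data were known when the members were chosen. The members make up 3 of the 824 miRNAs found in the rumen papillae of cattle. Of the 468 that were abundant enough to be tested, they also make up 3. The entry hsa-miR-93-5p is called miR-93 below and is the human name for the miRNA read from the bovine locus. In CPM, the reads of a miRNA per 1 M reads after TMM scaling of the library, miR-25 averaged 6718 ± 1104 (SD, n = 18 libraries), miR-93 averaged 3845 ± 501 and miR-106b averaged 1845 ± 191. These levels placed miR-25 at rank 26, miR-93 at rank 37 and miR-106b at rank 53 among the 468.

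Small RNA was sequenced from papillae, the finger-like projections of the rumen wall that absorb fermentation products, biopsied from 9 Holstein cows that had a rumen cannula and were not lactating. The animals first ate a diet of 100% forage and were later moved to a high-grain diet of 65% concentrate. Forage libraries of 5 unsupplemented cows form FD_CON and those of 4 cows allocated to a supplement labelled PHY form FD_PHY; the libraries of the same arms on grain form HG_CON (n = 5) and HG_PHY (n = 4). Neither the nature of PHY nor whether it was given during the forage period is stated in the sources used here, and because forage came first in every cow, diet and time cannot be told apart. Breed and tissue are shared by all groups, and no genetic change is named in the labels. Nothing in the labels ties a library number to a cow, so the tests take the 18 libraries as independent although they come from 9 cows.

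In mammals the hairpins of this cluster sit in an intron of MCM7, which encodes a subunit of the helicase that opens DNA for replication, and they are processed from the transcript of that gene. A miRNA finds its messenger RNAs mainly through its seed, the bases next to its 5′ end. miR-106b and miR-93 carry the seed of miR-17 and are known to repress the cell cycle inhibitor CDKN1A, whereas miR-25 carries the seed of miR-92a and is known to repress BCL2L11, which promotes cell death. The cluster is best known for its activity in dividing cells, and the rumen epithelium renews itself by division in its basal layer.

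In the deposited files the 3 members lie on the plus strand of chromosome 25, with miR-106b at 36892057 to 36892077, miR-93 at 36892259 to 36892281 and miR-25 at 36892500 to 36892521. The sources used here name no genome build for these positions. The start of miR-93 lies 202 nt and that of miR-25 lies 443 nt downstream of the start of miR-106b. RefSeq's bovine gene table (assembly ARS-UCD2.0), used only for names and neighbours, likewise places MIR106B, MIR93 and MIR25 on chromosome 25 within the span of MCM7. Reads of miR-106b were hardly shared with any other entry, since 313615 of its 313619 raw reads remained after the authors divided multiply mapped reads. miR-25 kept a share of 0.5 in that division, and 2 names, 1 bovine and 1 human, stand at its position with equal counts, so its reads were split between these names and not with its relative miR-92a.

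The libraries held between 5.74 M and 15.2 M reads (M, mega-reads), each read counted once per miRNA. Within a library the smallest count of a member was 11196 reads, for miR-106b, so counting error was small beside the differences between animals. Muscle miRNAs summed to between 129264 and 297899 CPM on forage and between 102603 and 133026 CPM on grain. They were miR-143 and miR-145 of smooth muscle, with miR-133a and miR-1, which are better known from striated muscle. miR-143 made up most of the sum, with a mean of 133130 CPM. Epithelial miRNAs (the miR-200 family, miR-141, miR-429 and miR-205) summed to between 52551 and 71561 CPM on forage and between 50196 and 69567 CPM on grain. Defining miRNAs of the labelled tissue were thus present in every library. No entry bore the exact name miR-203, also on that list, and longer forms of the name were not looked up, so its level is not given. On grain against forage, all 4 muscle miRNAs had a log2 change below 0, with -0.51 for miR-143 and -0.46 for miR-145 (edgeR adjusted p = 0.110 and 0.221). Of the 6 epithelial miRNAs tested, 4 lay above 0 and 2 below, beside 49.1% above 0 among the 468. The part of these cell types in the diet differences below was not tested. In bulk tissue a change in the cells sampled and a change in RNA per cell cannot be told apart.

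**Figure D1:**
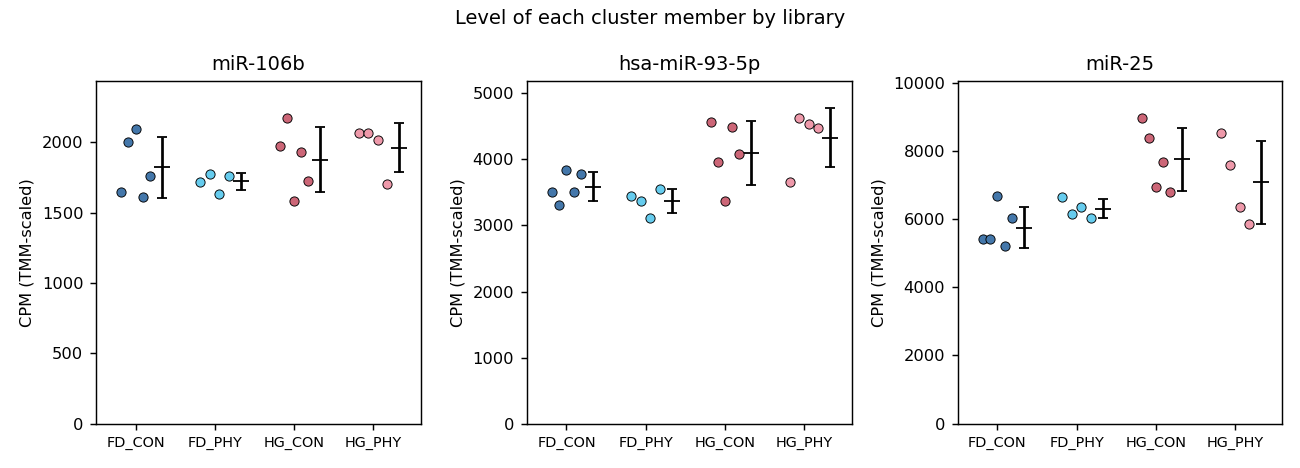
CPM (TMM-scaled) of miR-106b, hsa-miR-93-5p and miR-25 in each library, by group; points are libraries, and the bar with whiskers gives the group mean ± SD (n = 5, 4, 5 and 4). miR-25 lay at or above 6782 CPM in all 5 HG_CON libraries and at or below 6662 CPM in all 5 FD_CON libraries. In that arm, 0.641% of the 468 miRNAs tested had every grain library above every forage library. In HG_PHY, at 5848 to 8528 CPM, miR-25 overlapped the forage libraries, and miR-106b overlapped between diets in both arms.

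miR-25, the most abundant member, averaged higher on grain than on forage, with its larger difference in the unsupplemented cows, though not past the adjusted threshold. On forage its level was 5406, 5413, 6662, 5218 and 6014 CPM in FD_CON and 6658, 6140, 6361 and 6037 CPM in FD_PHY. On grain it was 8967, 8362, 6935, 7673 and 6782 CPM in HG_CON and 8528, 7572, 6339 and 5848 CPM in HG_PHY. Every HG_CON library thus stood above every FD_CON library, a pattern that 0.641% of the 468 miRNAs showed in that arm. In the PHY arm the groups overlapped, with 2 of 4 HG_PHY libraries above all of FD_PHY and 1 of them, at 5848 CPM, below all of FD_PHY. The means were 5990 ± 540 CPM (SD, n = 9) on forage and 7445 ± 1053 CPM (SD, n = 9) on grain. Averaged over the arms, the fold change was 1.23 (95% interval 1.09 to 1.39), a log2 change of 0.30 ± 0.09 (SE), with an edgeR p of 0.00244 and a Benjamini-Hochberg adjusted p of 0.165.

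miR-93 also averaged higher on grain, again without passing the adjusted threshold. Its forage levels were 3502, 3307, 3841, 3503 and 3786 CPM in FD_CON and 3452, 3369, 3118 and 3550 CPM in FD_PHY. Its grain levels were 4566, 3967, 3375, 4492 and 4087 CPM in HG_CON and 3662, 4631, 4530 and 4476 CPM in HG_PHY. Here the PHY arm was the one without overlap, since all 4 HG_PHY libraries exceeded all of FD_PHY (2.99% of the 468 miRNAs did so in that arm). In the CON arm 4 of 5 HG_CON libraries exceeded all of FD_CON, and the third HG_CON library, at 3375 CPM, lay among them. The means were 3492 ± 224 CPM (SD, n = 9) on forage and 4199 ± 451 CPM (SD, n = 9) on grain. The fold change was 1.21 (95% interval 1.08 to 1.35), a log2 change of 0.28 ± 0.08 (SE), with an edgeR p of 0.00169 and an adjusted p of 0.165.

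miR-106b, the first hairpin of the cluster and its least abundant member, had the smallest diet difference of the 3. It stood at 1646, 1999, 2096, 1613 and 1757 CPM in FD_CON and at 1719, 1772, 1633 and 1760 CPM in FD_PHY. On grain it stood at 1973, 2173, 1582, 1929 and 1725 CPM in HG_CON and at 2063, 2063, 2013 and 1700 CPM in HG_PHY. Groups overlapped in both arms, and only 1 grain library lay above the highest forage library. The means were 1777 ± 166 CPM (SD, n = 9) on forage and 1914 ± 199 CPM (SD, n = 9) on grain. The log2 change of 0.11 ± 0.08 (SE) had an edgeR adjusted p of 0.596, and its 95% interval in folds ran from 0.963 to 1.22.

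None of the 3 members passed the threshold of 0.05 on the adjusted p in this comparison, in which edgeR called 1 of 468 miRNAs (0.214%). At an unadjusted p under 0.05, 2 of the 3 members were up, against 4.27% of the 468 in that direction, and they held places 4 (miR-93) and 6 (miR-25) in the order of p-values. DESeq2 on the same counts called miR-93, with an adjusted p of 0.0359, as 1 of 5 calls among 395 miRNAs (1.27%). Of the 9 grain libraries, 8 lay above the forage mean for miR-25, 8 for miR-93 and 6 for miR-106b, and 5.13% of all miRNAs had 8 or more. Across the 468 the median log2 change was -0.01, with quartiles of -0.17 and 0.17, so miR-25 and miR-93 lay above the upper quartile and miR-106b between the quartiles.

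**Figure D2:**
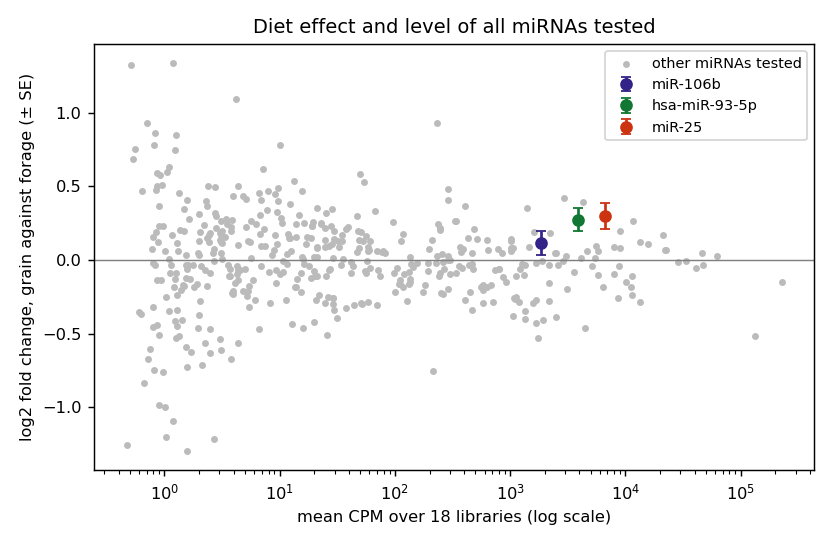
Log2 fold change on grain against forage, averaged over the arms, against mean CPM over 18 libraries (log scale) for the 468 miRNAs tested; grey points are other miRNAs and coloured points with ± SE are the cluster. miR-25 (0.30) and hsa-miR-93-5p (0.28) lie in the upper part of the points at their level, and miR-106b (0.11) lies nearer to 0.

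By arm, no diet effect on a member passed the test, nor did any difference between the arms. In CON the log2 change of miR-25 was 0.43 ± 0.12 (SE), that of miR-93 was 0.19 ± 0.10 and that of miR-106b was 0.04 ± 0.11, with edgeR adjusted p-values of 0.345, 0.574 and 0.953. In PHY the corresponding changes were 0.17 ± 0.13, 0.36 ± 0.11 and 0.19 ± 0.12, with adjusted p-values of 0.847, 0.379 and 0.832. miR-25 therefore had its larger estimate in CON and miR-93 in PHY. The interaction, the PHY effect minus the CON effect, was -0.26 ± 0.17 for miR-25, 0.17 ± 0.15 for miR-93 and 0.14 ± 0.16 for miR-106b, each with an edgeR adjusted p of 0.997. No miRNA was called in either arm or in the interaction, where 10.7% (CON), 7.05% (PHY) and 2.14% (interaction) of the 468 had an unadjusted p under 0.05. Without the second HG_CON library the miR-106b change in CON turned to -0.03, and without the first HG_PHY library the miR-25 change in PHY was 0.06.

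No difference between the supplemented and the control arm passed the test for a member, on either diet. On forage the log2 difference of FD_PHY against FD_CON was 0.13 ± 0.12 (SE) for miR-25, -0.09 ± 0.11 for miR-93 and -0.08 ± 0.11 for miR-106b, each with an edgeR adjusted p of 0.929. On grain the difference of HG_PHY against HG_CON was -0.13 ± 0.12 for miR-25, 0.08 ± 0.11 for miR-93 and 0.06 ± 0.11 for miR-106b, with adjusted p-values of 0.781, 0.813 and 0.874. The 95% intervals in folds ran from 0.920 to 1.31 on forage and from 0.765 to 1.09 on grain for miR-25, and from 0.804 to 1.10 and 0.904 to 1.23 for miR-93. Folds within these bounds are not excluded by the data. edgeR called no miRNA in these comparisons, and 4.70% (forage) and 6.84% (grain) of the 468 had an unadjusted p under 0.05; DESeq2 called 1 (0.214%) and 2 (0.427%), and no member.

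**Figure D3:**
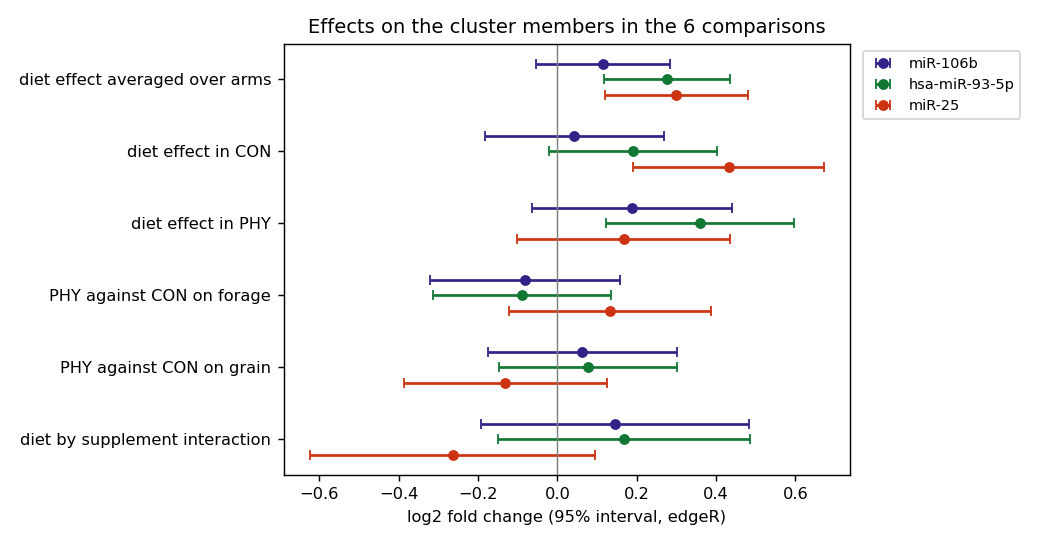
Log2 fold changes (points) with 95% intervals (edgeR) of the cluster members in the 6 comparisons. The intervals of miR-25 and hsa-miR-93-5p lie above 0 for diet averaged over arms, and all intervals of the supplement and interaction comparisons include 0.

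By group mean, miR-106b and miR-93 shared the order FD_PHY, FD_CON, HG_CON, HG_PHY from low to high. For miR-106b these means were 1721 ± 63, 1822 ± 215, 1876 ± 229 and 1960 ± 175 CPM (SD), and each neighbouring pair lay within its spread. For miR-93 they were 3372 ± 185, 3588 ± 222, 4098 ± 478 and 4325 ± 446 CPM, where the widest step was that from forage to grain and the steps between arms lay within the larger SD of each pair. miR-25 had the order FD_CON, FD_PHY, HG_PHY, HG_CON, with 5743 ± 595, 6299 ± 275, 7072 ± 1212 and 7744 ± 930 CPM, and the step from FD_PHY to HG_PHY was smaller than the SD of HG_PHY.

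Raw reads of members within one library can be compared without any library scaling. miR-25 made up 54.0% ± 3.32 (SD, n = 18) of the reads of the 3 members, miR-93 31.1% ± 2.89 and miR-106b 14.96% ± 1.35. These shares compare counts of different sequences, and the efficiency with which each is captured in a small RNA library was not measured. The 3 together took 1.09% ± 0.13 (SD, n = 9) of the reads counted on forage and 1.41% ± 0.17 on grain, shares of unscaled totals that were 0.874% to 1.25% on forage and 1.16% to 1.71% on grain.

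The ratio of miR-25 to miR-106b was higher in every HG_CON and FD_PHY library than in any FD_CON library, without passing after adjustment. For FD_PHY the margin was narrow, with a lowest ratio of 3.43 against a highest of 3.42 in FD_CON. How often ratios of other miRNAs show such a pattern was not tested. In FD_CON miR-25 had 3.28, 2.71, 3.18, 3.24 and 3.42 reads per read of miR-106b, and in HG_CON it had 4.55, 3.85, 4.38, 3.98 and 3.93. The ratio was thus higher in all 5 HG_CON libraries than in any FD_CON library, a log2 difference of 0.39 with an exact permutation p of 0.00794, the smallest that 5 against 5 libraries allow, and 0.0556 after adjustment over 7 ratios. In FD_PHY the ratio was 3.87, 3.47, 3.89 and 3.43 and in HG_PHY it was 4.13, 3.67, 3.15 and 3.44, which overlap, with a log2 difference of -0.03 (exact permutation p = 0.743). Averaged over the arms, the log2 difference between diets was 0.18 (exact permutation p = 0.0351, adjusted p = 0.0934).

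The diet effect on this ratio was lower by 0.42 on the log2 scale in PHY than in CON. With arms permuted within each diet, a test added after the values were seen, the exact permutation p was 0.00220 and the adjusted p over 7 ratios was 0.0154. With diets permuted within each arm instead, the exact permutation p was 0.0108 and the adjusted p was 0.0754, so the call depends on which labels are permuted. Both permutations took the libraries as independent although the same cows were sampled on both diets. Without cow labels, whole cows could not be permuted, so neither p accounts for the repeated sampling. Leaving out each library in turn gave values between -0.49 and -0.36. On forage, all 4 FD_PHY ratios (3.43 to 3.89) exceeded all 5 FD_CON ratios (2.71 to 3.42). The forage log2 difference between arms was 0.21, with an exact permutation p of 0.0159, the smallest possible, and 0.0833 after adjustment. On grain the difference between arms had the opposite sign, -0.21 (exact permutation p = 0.0714, adjusted p = 0.444).

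miR-25 against miR-93 followed a related pattern. Its ratio was 1.54, 1.64, 1.73, 1.49 and 1.59 in FD_CON, 1.93, 1.82, 2.04 and 1.70 in FD_PHY, 1.96, 2.11, 2.05, 1.71 and 1.66 in HG_CON, and 2.33, 1.64, 1.40 and 1.31 in HG_PHY. The last group spans the lowest and the highest value of all 18, with its first library apart from the other 3. The log2 difference between diets was 0.24 in CON and -0.20 in PHY, with adjusted exact permutation p-values of 0.0926 and 0.550, and 0.02 over both (adjusted p = 0.860). The difference between these effects, also tested after the values were seen, was -0.45. Its adjusted exact permutation p was 0.109 with arms permuted within each diet and 0.150 with diets permuted within each arm. Of 20 alternatives 1 passed, the one without the first HG_PHY library, where the difference was -0.62 with an adjusted exact permutation p of 0.00248. miR-93 against miR-106b, the 2 members with the miR-17 seed, differed by 0.16 between diets (adjusted exact permutation p = 0.107), with 0.14 in CON and 0.17 in PHY. Without the first HG_PHY library this difference was 0.21 and passed (adjusted exact permutation p = 0.0325).

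**Figure D4:**
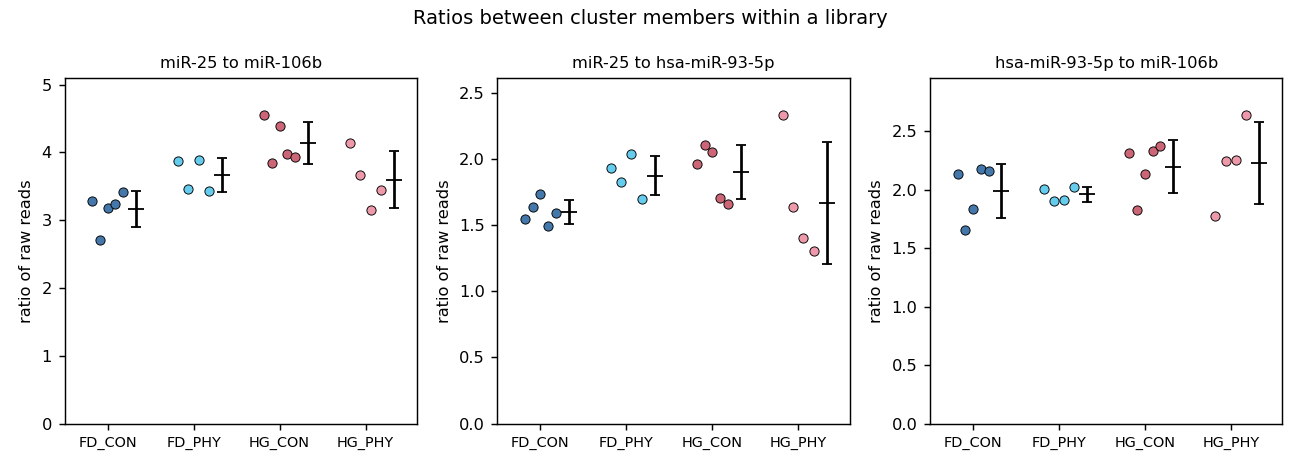
Ratios of raw reads between cluster members within each library, by group; points are libraries and the bar with whiskers gives the group mean ± SD (n = 5, 4, 5 and 4). The miR-25 to miR-106b ratio of HG_CON (3.85 to 4.55) lies above that of FD_CON (2.71 to 3.42), and the first HG_PHY library is highest in the miR-25 to miR-93 ratio (2.33).

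On grain these ratios moved with miRNAs of red blood cells, which a biopsy can hold in varying amounts. miR-451, miR-486 and miR-144, abundant in erythroid cells, were all detected and summed to 14199, 6404, 11009, 8948 and 7836 CPM in FD_CON and to 12361, 7493, 12257 and 7299 CPM in FD_PHY. On grain they summed to 17615, 10954, 18352, 7895 and 7895 CPM in HG_CON and to 16870, 10524, 7424 and 6415 CPM in HG_PHY. The libraries highest in these miRNAs in FD_PHY (the first and the third), HG_CON (the first and the third) and HG_PHY (the first) were also the highest of their groups in the ratio of miR-25 to miR-106b, which was not so in FD_CON. Among the grain libraries the correlation of that ratio with the erythroid sum, both on the log2 scale, was r = 0.80 (exact permutation p = 0.00871, adjusted p = 0.0436 over 10 relations) and rho = 0.83 (exact permutation p = 0.00827, adjusted p = 0.0538), and r was 0.61 without the 2 libraries farthest from the median erythroid sum. For the ratio of miR-25 to miR-93 on grain, r was 0.85 (exact permutation p = 0.00528, adjusted p = 0.0436) and rho 0.82 (exact permutation p = 0.0108, adjusted p = 0.0538), and r was 0.90 without the 2 farthest.

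On forage none of these relations passed, with r = 0.52 for miR-25 to miR-106b and r = 0.27 for miR-25 to miR-93 (exact permutation p = 0.150 and 0.472, adjusted p = 0.300 and 0.590), and rho was 0.32 and 0.13 (exact permutation p = 0.410 and 0.744, adjusted p = 0.683 and 0.826). The level of miR-25 itself gave r = 0.68 on grain (exact permutation p = 0.0485, adjusted p = 0.162) and r = 0.28 on forage (exact permutation p = 0.460, adjusted p = 0.590), with rho of 0.73 and 0.20 (exact permutation p = 0.0311 and 0.613, adjusted p = 0.104 and 0.826). miR-93 gave r = -0.58 and rho = -0.33 on grain and r = -0.05 and rho = 0.00 on forage, and miR-106b gave r = 0.06 and rho = 0.13 on grain and r = -0.35 and rho = -0.53 on forage. None of these passed (lowest adjusted exact permutation p = 0.237 for r and 0.369 for rho). Without the 2 libraries farthest from the median erythroid sum, r on grain and on forage was 0.85 and 0.52 for miR-25, -0.74 and -0.30 for miR-93, and 0.67 and 0.04 for miR-106b, and the forage r was 0.51 and 0.59 for the ratios of miR-25 to miR-106b and to miR-93. These relations hold 9 libraries each and were computed after the values by library were seen. Depth moved with them too, since the 4 libraries with the fewest reads, HG_CON 1 (5.74 M), HG_PHY 1 (6.001 M), FD_PHY 1 (6.53 M) and FD_PHY 3 (6.56 M), are among those named above. The part of erythroid RNA or depth in the diet effects was not tested.

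Within a diet, the correlation between members across libraries ranged from -0.12 to 0.61, and 9 libraries are too few to exclude a closer link. Over the 9 forage libraries Pearson's r of log2 CPM was 0.38 between miR-106b and miR-93, 0.28 between miR-106b and miR-25, and 0.14 between miR-93 and miR-25, and Spearman's rho was 0.23, 0.42 and 0.03. Over the 9 grain libraries r was 0.35, 0.61 and -0.12, and rho was 0.17, 0.55 and 0.00. None of these 6 relations passed (lowest exact permutation p = 0.0831, adjusted p = 0.498, for miR-106b with miR-25 on grain). Without the 2 libraries farthest from the median of miR-106b, r was 0.42 and 0.52 for its forage relations with miR-93 and miR-25, and -0.11 and 0.45 on grain; without those farthest in miR-93, its r with miR-25 was 0.14 on forage and -0.11 on grain.

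For each member, some other miRNAs resembled it more closely across the 18 libraries than its cluster partners did. The partners still ranked between 11 and 36 among 275 candidates. The closest of so many candidates will tend to exceed any named partner, so this order is a description only. Among 275 other miRNAs with a mean of at least 10 CPM, those most like miR-106b were miR-339a (r = 0.76), miR-2284x (r = 0.74), hsa-let-7f-2-3p (r = 0.68) and miR-141 (r = 0.65), while miR-25 held rank 11 (r = 0.58) and miR-93 rank 23 (r = 0.49). Those most like miR-93 were miR-320a (r = 0.82), miR-484 (r = 0.73), miR-532 (r = 0.71) and miR-98 (r = 0.70), while miR-106b held rank 18 and miR-25 rank 25 (r = 0.47). miR-320a was the miRNA called by edgeR for diet, with a log2 change of 0.43 and an adjusted p of 0.0487. Those most like miR-25 were miR-345-3p (r = 0.72), miR-151-3p (r = 0.69), miR-331-5p (r = 0.67) and the erythroid miR-486 (r = 0.67), while miR-106b held rank 14 and miR-93 rank 36. These coefficients are a description over libraries that share groups and scaling.

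The relatives of miR-106b and miR-93 lay on both sides of 0 in the diet comparison. miR-17-5p, miR-20a, miR-20b and miR-106a carry the same seed from 2 related clusters, miR-17-92 and miR-106a-363, and miR-18a and miR-18b, whose seed differs by a base, are usually counted in the same family. All 8 of the list were tested, 4 lay above 0 for diet (49.1% of the 468 did), edgeR called 0 and DESeq2 called miR-93 as given above, and the median log2 change was 0.00, or -0.05 over the 6 that are not in the cluster, beside -0.01 over all 468. miR-20a had 831 ± 100 CPM (SD, n = 9) on forage and 857 ± 40 CPM on grain, a log2 change of 0.05 ± 0.08 (SE), and miR-17-5p had 817 ± 154 and 783 ± 94 CPM, a change of -0.06 ± 0.11. The ratio of miR-93 to miR-20a was higher on grain by 0.21 on the log2 scale (exact permutation p = 0.0166, adjusted p = 0.0934), and that of miR-106b to miR-17-5p by 0.16 (exact permutation p = 0.249, adjusted p = 0.348). The former passed without the first HG_PHY library (0.26, adjusted exact permutation p = 0.0317) and without the third HG_CON library (0.24, adjusted exact permutation p = 0.0444), and the latter was 0.09 without the fifth FD_CON library (adjusted exact permutation p = 0.576).

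Relatives of miR-25 lay on the same side of 0 as miR-25. Of the 6 listed miRNAs with its seed, 5 were tested, miR-25 among them, and all 5 lay above 0 (49.1% of the 468 did). They also did so in the 31 alternatives (30 for miR-363, which 1 alternative left out). These alternatives reuse the same data, and 18 of them only leave out 1 library. The changes of miR-92b (0.05 ± 0.11, SE) and miR-363 (0.18 ± 0.22) lay within their SE of 0. edgeR called 0 of the list, and the median of the 4 others was 0.15. miR-92a, the most abundant at 10523 ± 1636 CPM (SD, n = 9) on forage and 12660 ± 3617 CPM on grain, had a log2 change of 0.27 ± 0.14 (SE) with an edgeR p of 0.0784 and an adjusted p of 0.491. miR-32, which is encoded elsewhere in the genome, had 961 ± 137 and 1066 ± 191 CPM, a change of 0.13 ± 0.11. The ratio of miR-25 to miR-92a differed by 0.06 between diets (adjusted exact permutation p = 0.736). miR-367 had 10 reads over all libraries and was not tested. Over the 11 miRNAs of the miR-17-92 and miR-106a-363 clusters, 5 lay above 0, edgeR called 0 and the median was -0.02.

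**Figure D5:**
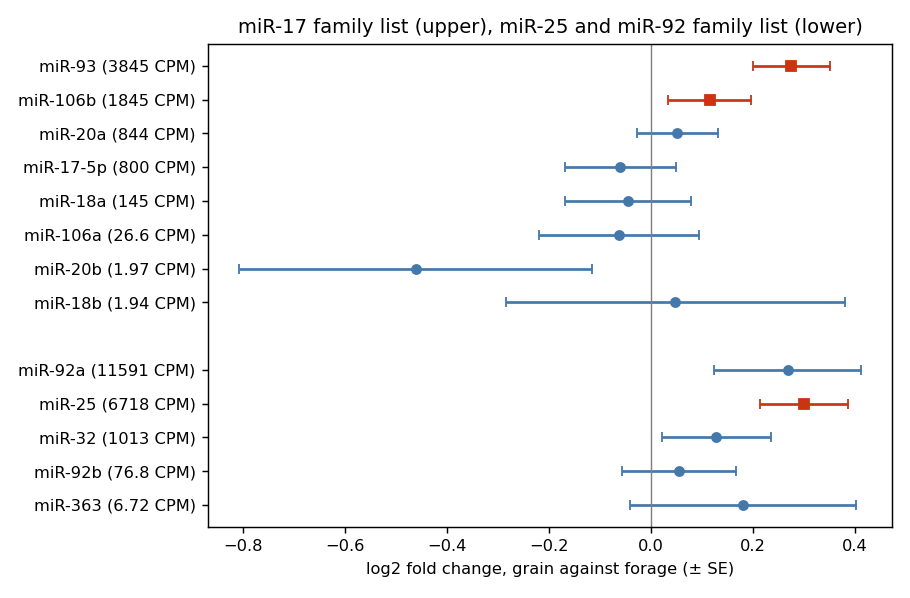
Log2 fold change (± SE) on grain against forage for the miR-17 family list and for the miR-25 and miR-92 family list, with mean CPM in parentheses; squares mark cluster members. The 5 estimates of the lower list lie above 0, though those of miR-92b and miR-363 lie within their SE of 0. In the upper list miR-93 (0.28) has the highest estimate, followed by miR-106b (0.11) and miR-20a (0.05), and miR-17-5p (-0.06) lies below 0.

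Each hairpin can also yield a second, passenger strand. miR-25-5p, the passenger of miR-25, was listed in every library with 13 to 82 reads, 749 in all, against 1121719 reads of miR-25, so it formed 0.0673% ± 0.0221 (SD, n = 18) of the reads of both strands. Its level was 4.59 ± 1.16 CPM (SD, n = 9) on forage and 4.18 ± 1.15 CPM on grain. miR-25 had 773, 1637, 1796, 1440 and 1369 reads per read of miR-25-5p in FD_CON, 1468, 1339, 1090 and 1406 in FD_PHY, 1531, 2252, 2065, 1858 and 1816 in HG_CON, and 4300, 1492, 1370 and 1138 in HG_PHY. The groups overlapped in both arms, and the log2 difference between diets was 0.46 (exact permutation p = 0.0400, adjusted p = 0.0934). It was 0.25 without the first HG_PHY library (adjusted exact permutation p = 0.166) and 0.57 without the fourth (adjusted exact permutation p = 0.0349). Values for the passengers of miR-106b and miR-93 were not analysed here.

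miR-93 stands in the files under a bovine entry of 22 nt and a human entry of 23 nt that start at the same base. The human entry, used above, had 655154 reads and the bovine entry 641808. The counts were equal in 7 of 18 libraries, 2 of them on forage and 5 on grain, and in the other 11 the human entry held between 3.03% and 3.76% of reads not counted for the bovine one. Under the bovine entry the log2 change for diet was 0.29 with an edgeR adjusted p of 0.131. Why the entries agree in some libraries was not tested. The number of distinct read sequences assigned to a member was 191 ± 21 (SD, n = 18) for miR-25, 173 ± 20 for miR-93 and 114 ± 19 for miR-106b, and it overlapped between diets for each.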

How the data were processed

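Small RNA reads of 18 libraries of rumen papillae were analysed from the deposited files. Per the file headers, each library file gives a raw read count, a number of distinct sequences and an estimated count, which the authors obtained by dividing reads over the names and loci they fit. A deposited table of the series holds a signal normalized by the authors for 673 names, which became whole reads for 100% of values (within 0.01 reads) once multiplied by a factor per library. Among tools, bcl2fastq 2.20 and DESeq2 are listed in the submitters' processing notes, and for the aligner and the genome build the sources used here give nothing. Per the labels' protocols, a NucleoSpin miRNA kit served for extraction and a NETflex kit for the libraries. Adapter ligation and amplification differ in efficiency between sequences, so levels of different miRNAs are not strictly comparable.

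Of 966 names, those overlapping by at least 15 nt, or with bovine and human names for the same miRNA and totals within 5%, were taken as 1 of 824 miRNAs, counted under the name with the most reads. In edgeR 4.0.16 (R 4.3.3), 468 passed filterByExpr and were fitted on raw counts with TMM scaling, a mean per group and the quasi-likelihood test, two-sided, with Benjamini-Hochberg adjustment over the 468 and a threshold of 0.05. Ratios of raw reads were compared by exact two-sided permutation within arms (17640 arrangements), adjusted over 7 ratios. Alternatives used DESeq2 1.42.0, limma 3.58.1, other scalings and filters, estimated counts rounded to whole numbers, the authors' signal, a block for the replicate number, and each library left out. The edgeR and permutation steps were tested on simulated data.

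The members were always named, as was miR-25-5p, the other strand of a member's hairpin that was analysed. Relatives were named where their unadjusted p for diet was under 0.05 or where they were among the 3 most abundant of their list. The 4 miRNAs most like each member were named by Pearson's r. Further miRNAs were named as members of cell type lists, for the erythroid relation or in connection with a ratio. The members and lists were chosen with earlier results of these data known. Replicate libraries differed by more than counting noise (chi-square per degree of freedom from 125.8 to 2930), so none was counted as a copy. Summed levels of the other cell type lists ranged, on forage and then on grain, from 5432 to 7972 and from 4836 to 7850 CPM for leukocytes, from 13013 to 16158 and from 9452 to 14189 CPM for endothelium, and from 6187 to 9930 and from 5554 to 8964 CPM for fibroblasts. The log2 change for diet lay below 0 for 5 of 7 leukocyte, 2 of 2 endothelial and 4 of 4 fibroblast miRNAs, and above 0 for 3 of 3 erythroid ones. edgeR called 0 in each list.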

Additional observations from a re-analysis of the deposited data

Results flagged for a closer look

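Within groups of 4 or 5 libraries, the levels and ratios were checked for a library set far apart from the rest, in 40 groups in all. Chance gives about 1 such case in 20 independent groups, and 4 were found, all in HG_PHY. All but that of miR-106b fall in the first HG_PHY library, and those on miR-93 share its count there. The groups checked thus share libraries and counts, so the number found cannot be set against that rate. miR-106b was lowest in the fourth HG_PHY library at 1700 CPM, where the next was 2013 and the highest 2063 CPM. miR-93 was lowest in the first HG_PHY library at 3662 CPM, where the next was 4476 and the highest 4631 CPM. In that library the ratio of miR-93 to miR-20a was 4.09, where the other 3 lay between 5.20 and 5.25. Its ratio of miR-25 to miR-25-5p was 4300, where the next was 1492, and it rests on 13 reads of the passenger strand. The erythroid sum of that library was 16870 CPM and its depth 6.001 M (mega-reads), and their part was not tested.

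The diet effect on the log2 ratio of miR-25 to miR-106b differed between the arms by -0.42. With arms permuted within each diet it passed (exact permutation p = 0.00220, adjusted p = 0.0154 over 7 ratios). With diets permuted within each arm it did not (exact permutation p = 0.0108, adjusted p = 0.0754). The effect was a rise in 5 of 5 HG_CON libraries over all of FD_CON and an overlap in PHY. This difference was tested only after the values were seen, with libraries of the same cows taken as independent.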

How the results depend on the processing

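Over 31 or 32 alternatives for each comparison, the log2 changes of miR-25 and miR-93 kept their sign in all 6 comparisons. The diet change averaged over arms lay between 0.25 and 0.34 for miR-25, between 0.24 and 0.31 for miR-93 and between 0.08 and 0.14 for miR-106b. With DESeq2, miR-93 passed (0.28, adjusted p = 0.0359). Leaving out each library in turn moved miR-106b in CON between -0.0265 and 0.0896, the ratio of miR-25 to miR-93 between diets from -0.066 to 0.073 and that of miR-25 to miR-92a from -0.00103 to 0.11. The reversed values were -0.0265 (without the second HG_CON library), -0.00207 and -0.00103 (both without the fourth FD_PHY library) and -0.066 (without the first HG_PHY library), and the cause was not tested. Leaving out 1 library made the diet difference pass for miR-93 to miR-20a (2 cases), miR-93 to miR-106b (1) and miR-25 to miR-25-5p (1), and for none of the other 4 ratios. With diets permuted within arms, the ratio interaction of -0.42 had an adjusted p of 0.0754.

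The 1 miRNA called for diet became 5 with DESeq2, 4 with a block for the replicate number, 3 with no filter or with limma-voom, and 2 with every name kept apart or with the whole reads recovered from the authors' signal. It became 0 with upper-quartile scaling, the filter of 10 CPM in 4 libraries, the estimated counts, limma-trend on the authors' signal or without the 5 most abundant miRNAs, and 0 to 3 with a library left out. In the other comparisons 0 were called by edgeR; between the arms DESeq2 called 1 on forage and 2 on grain, omitting the filter called 1 on forage, limma-voom called 1 for diet in PHY, and leaving out a library gave 0 to 1 on forage and 0 to 2 on grain.

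With the replicate block, the diet changes were 0.29 for miR-25, 0.27 for miR-93 (adjusted p = 0.123 each) and 0.11 for miR-106b (adjusted p = 0.568), and no member's call changed. The labels do not say that a number marks a cow. Correlations of same-numbered libraries lay between -0.00272 and 0.393 in CON and between -0.0164 and 0.186 in PHY, and 2 of 9 correlated best with their own number, so the block was not used for the reported values. Depth did not limit the members, but for miR-25-5p it did.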
